A study of Mus musculus with 12 samples.

Results

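The genes described here are 7 that store, move or release iron: the ferritin chains Fth1 and Ftl1, the transporters Slc11a1 and Slc40a1, the transferrin receptor Tfrc, the heme-degrading enzyme Hmox1 and the ferritin receptor of autophagy Ncoa4. They were chosen by name, and all 7 were found among the 11911 genes of the deposited table. RNA was sequenced from neutrophils of the mouse heart in 12 libraries of 800 cells each, 6 with the genotype label Control (numbers 2, 6, 7, 8, 11 and 12) and 6 with the genotype label LOY (numbers 3, 4, 5, 10, 14 and 15), and the series title links LOY to hematopoietic cells that have lost their Y chromosome. The cells came from left ventricles of mice whose titles all read Control BMT (bone marrow transplant). Every treatment label reads Control, so these labels do not tell control and LOY animals apart. The codes within the titles do differ, and end in C for control and in KO for LOY libraries. The sort kept CD45.2+Ly6G+CD64-RFP+ cells. The sources used here do not give strain, age, the way the Y chromosome was lost or what RFP marks. Whether the libraries are from different mice is not labelled either, so the p-values speak for the spread among the 12 libraries, part of which may be technical.

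Values are normalised reads, that is, the reads of a gene after the authors' scaling of each library. The listed genes held 6767108 to 12561174 reads per library. Ddx3y, a Y-linked RNA helicase that checks the genotype labels, stood at 857 ± 422 normalised reads in control and 8.77 ± 20.97 in LOY libraries (SD, n = 6 each; limma log2 difference -8.46, adjusted p = 0.0197). Eif2s3y, another Y-linked gene, stood at 542 ± 399 and 4.10 ± 6.96 and did not pass (limma adjusted p = 0.708). Uty was above 0 in 4 libraries alone, and Kdm5d was not listed. The summed level of the listed Y-linked genes ran from 1032 to 1972 in control and from 0 to 59.3 in LOY libraries. All 14 neutrophil markers on the list were measured, and S100a8, a calcium-binding alarmin of neutrophils, stood at 108680 ± 75591 in control and 80240 ± 37062 in LOY libraries. Ly6g, which encodes the sorted surface protein, was low, at 0.93 to 1039 normalised reads in control and 0 to 619 in LOY libraries. The summed level of 15 cardiomyocyte genes ran from 4283 to 8452 in control and from 4430 to 62161 in LOY libraries, the highest being LOY 10, and that of 8 fibroblast genes from 2972 to 10540 and from 5835 to 16383.

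A cell takes up iron bound to transferrin through Tfrc, keeps what it does not use inside ferritin shells built of heavy (Fth1) and light (Ftl1) chains, and releases it through ferroportin, the product of Slc40a1. Ncoa4 carries ferritin to the lysosome, where its iron is freed, Hmox1 frees iron from heme, and Slc11a1 pumps metal out of the phagosome and so keeps it from engulfed bacteria. Iron regulatory proteins bind a hairpin called the iron-responsive element: in a 5′ UTR it blocks translation when iron is scarce, and in the 3′ UTR of Tfrc it protects the mRNA. Control at this hairpin in a 5′ UTR acts on protein synthesis, which RNA-seq does not measure.

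The hairpin is printed for the 4 of the 7 genes whose transcripts hold it, because it was found in the ferritin chains, the exporter and the receptor and not in the other 3. It was searched as an unpaired C, 5 bases that pair with the 5 after the loop, the loop CAGTGN, and at least 3 of 5 pairs in the lower stem, on the transcript strand alone. The C and the loop are in capitals. Sequences are from GENCODE M21 transcripts on GRCm38, 5′ to 3′, 27 bases each. The element of Fth1 is at chr19:9982733-9982759 (plus strand), that of Ftl1 at chr7:45459780-45459806 (minus strand) and that of Slc40a1 at chr1:45925466-45925492 (minus strand), all in the 5′ UTR. The 4 of Tfrc are in its 3′ UTR on the plus strand, at chr16:32631220-32631246, chr16:32631599-32631625, chr16:32631664-32631690 and chr16:32631711-32631737, printed as A to D. These letters give the order of the matches along the transcript and are not established names of the elements. Elements that depart from the searched pattern would be missed, so the matches need not be the full set.
Fth1: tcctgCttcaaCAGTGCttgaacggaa
Ftl1: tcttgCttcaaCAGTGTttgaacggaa
Slc40a1: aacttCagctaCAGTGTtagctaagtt
Tfrc A: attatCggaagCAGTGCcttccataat
Tfrc B: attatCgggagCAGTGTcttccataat
Tfrc C: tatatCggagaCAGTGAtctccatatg
Tfrc D: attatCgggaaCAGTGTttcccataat

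No match was found in the transcripts of Slc11a1, Hmox1 or Ncoa4. Across the annotation, 7 of 19564 5′ UTRs (0.0358%) and 32 of 20511 3′ UTRs (0.156%) held a match, so 3 of the 7 genes with one in the 5′ UTR are described here. The Fth1 and Ftl1 transcripts aligned to each other over 31 bases alone (90.3% identity), and this stretch holds the element of both.

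**Figure D1:**
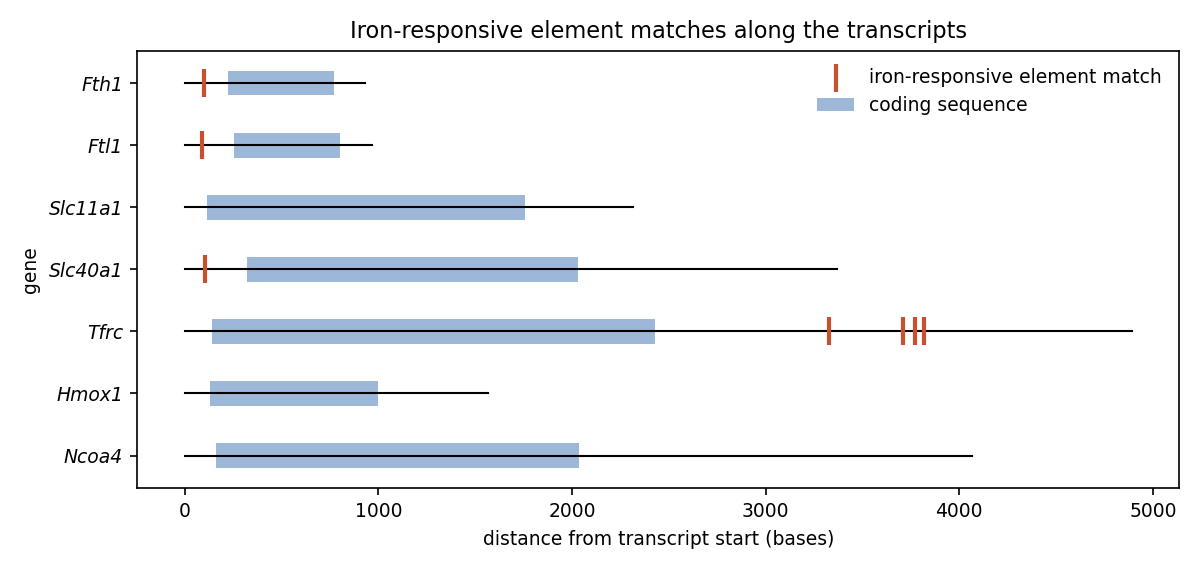
Positions of the iron-responsive element matches on the transcripts of the 7 genes, in bases from the transcript start; boxes are coding sequences and red ticks are matches. Fth1, Ftl1 and Slc40a1 each carry 1 match before the coding sequence, Tfrc carries 4 after it, and the other 3 genes carry none.

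The ferritin chains were among the most abundant messages of these libraries. On a scale of reads per transcript base, brought to the same total over the listed genes in every library (TPM), Fth1 had a median of 18588 over the 12 libraries (14059 to 24925) and ranked between 4 and 12 of all genes. Ftl1 had a median of 16443 TPM (9875 to 23099) and ranked between 5 and 15. Both chains together took 1.62% to 3.52% of the listed reads. Slc11a1 followed at a median of 299 TPM (160 to 529), Slc40a1 at 226 (34.4 to 467), Hmox1 at 215 (68.4 to 465), Ncoa4 at 14.9 (0.206 to 45.1) and Tfrc at 0.132 (0 to 9.10).

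Several steps in this order held library by library and others did not. Ftl1 was above Slc11a1 and Hmox1 above Ncoa4 in 12 of 12 libraries, and Ncoa4 was above Tfrc in 11. Slc11a1 was above Slc40a1 in 10 libraries and Fth1 above Ftl1 in 9. Slc40a1 was above Hmox1 in 5 of 12, so these neighbours had no steady order.

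The genes also differed in how much they varied between libraries. In normalised reads, the highest library was 2.55 times the lowest for Ftl1, 2.75 times for Slc11a1 and 2.90 times for Fth1. It was 6.38 times the lowest for Hmox1, 8.82 times for Slc40a1 and 226 times for Ncoa4. The order of the steadier genes depends on the scale. In TPM, Fth1 ran from 14059 to 24925, Ftl1 from 9875 to 23099 and Slc11a1 from 160 to 529. On that scale Fth1 had the smallest fold range of these and Slc11a1 the largest. Leaving out the library at an extreme can only narrow a range. The range in normalised reads was 3.90 times for Hmox1 and 8.60 times for Ncoa4 without LOY 5. It was 3.13 times for Slc40a1 without control 8, so that of Ncoa4 stayed the widest of these. Without LOY 15 it was 2.09 times for Fth1 and 1.80 times for Ftl1, and without control 7 it was 2.39 times for Slc11a1. On the log2 scale, 0.691% of the 6951 genes tested had a smaller SD than Ftl1, 2.53% a smaller one than Fth1 and 3.50% than Slc11a1. For Hmox1 that share was 13.9%, for Slc40a1 14.5% and for Ncoa4 42.0%. Without the library named for each gene it was 7.75%, 4.62% and 26.5%. It was 0.0288% for Ftl1 and 1.81% for Fth1 without LOY 15, and 1.87% for Slc11a1 without control 7. Abundant genes vary less in such data, and spread was not compared at matched level.

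**Figure D2:**
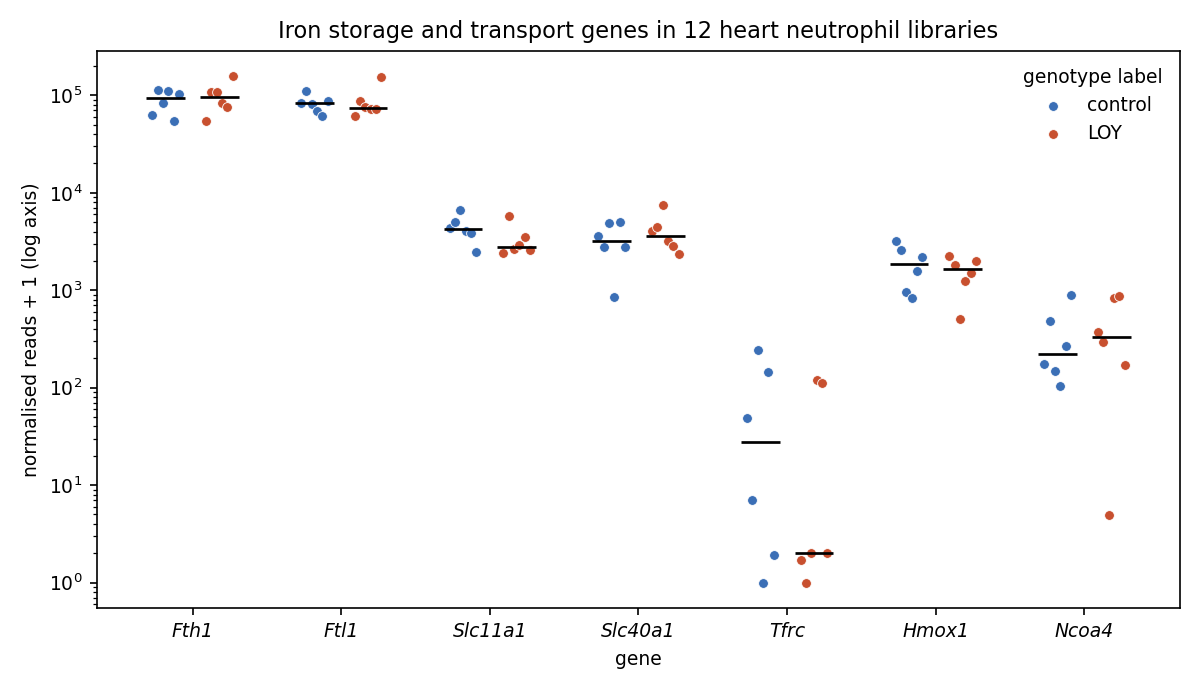
Normalised reads + 1 of each of the 7 genes in the 6 control and 6 LOY libraries, on a log axis; points are libraries and bars are group medians. Control and LOY points overlap for all 7 genes, and Ncoa4 and Tfrc spread most.

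Fth1, the heavy chain that oxidises iron as it enters the shell, lies at chr19:9980598-9985098. It stood at 54914, 93203 and 113622 normalised reads in the lowest, median and highest control library and at 54335, 95670 and 157635 in LOY. The groups overlapped over nearly their whole range, with LOY 15 above every control library and LOY 3 just below the lowest. The means were 87958 ± 24868 in control and 98255 ± 35629 in LOY (SD, n = 6 each), a log2 difference, LOY minus control, of 0.13 (SE 0.25, 95% interval -0.40 to 0.67, limma adjusted p = 0.999). Without LOY 15 the difference was -0.02, and with the cardiomyocyte gene mean as a covariate it was 0.24.

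Ftl1, the light chain that helps the iron core form, lies at chr7:45457944-45459884. Its lowest, median and highest values were 60868, 82576 and 109749 normalised reads in control and 61220, 74029 and 155001 in LOY. Again LOY 15 was the one library above all controls, and the other 5 LOY libraries lay within the control range. The means were 82225 ± 16779 and 87498 ± 34144, a log2 difference of 0.04 (SE 0.21, 95% interval -0.41 to 0.49, limma adjusted p = 0.9995), which was -0.14 without LOY 15.

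LOY 15 was the highest library for both chains in normalised reads. In TPM it was highest for Ftl1 (23099), while Fth1 was highest in LOY 5 (24925, against 24477 in LOY 15). LOY 15 also had the highest sum of 10 endothelial genes of all 12 libraries, 6305 normalised reads. This sum ran from 1062 to 4097 in control and from 2238 to 4979 in the other LOY libraries. The macrophage marker sum of LOY 15 was 12825, against 7390 to 11400 in control and 4117 to 15063 in LOY libraries. Its cardiomyocyte sum was 15553. Its mature neutrophil marker sum was 419410, the highest of the LOY libraries, against 246004 to 660593 in control. Its fibroblast sum was 6969, inside the control range of 2972 to 10540. The part of each of these cell types in the ferritin values was not tested. In bulk samples, fewer cells of a type and less RNA per cell cannot be told apart.

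The balance of the chains was close to even. The log2 ratio of Fth1 to Ftl1 normalised reads was 0.07 ± 0.36 in control and 0.16 ± 0.25 in LOY libraries (SD, n = 6 each). It was above 0 in 9 of 12 libraries and ran from -0.40 in control 2 to 0.66 in control 8, so control libraries spanned the whole range. Per kilobase of transcript the mean over all 12 was 0.17.

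**Figure D3:**
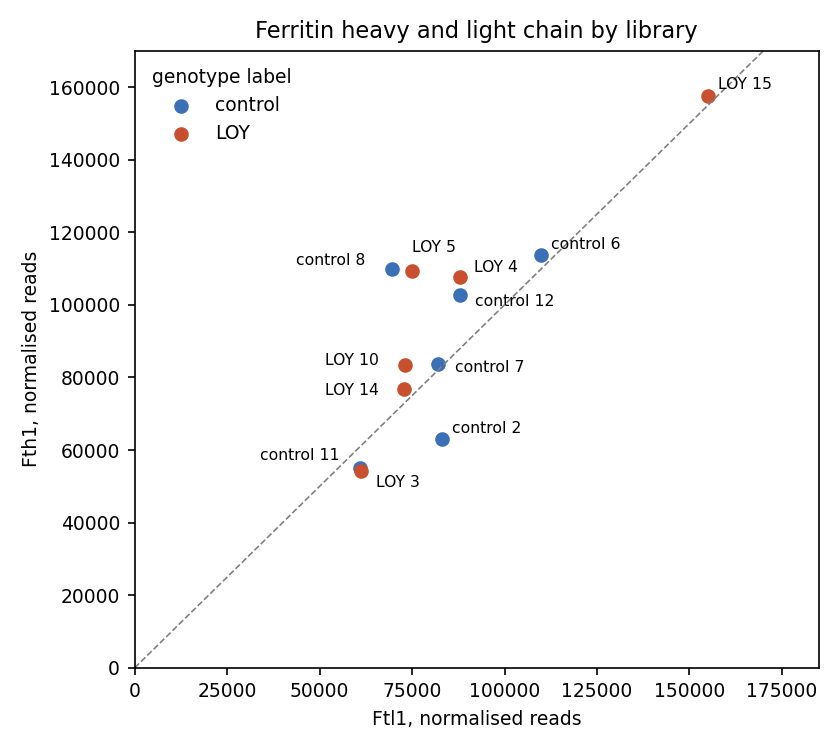
Fth1 against Ftl1 in each library, in normalised reads; the dashed line marks equal values. Most libraries lie near or above the line, and LOY 15 stands apart at the upper right with the highest value of both chains.

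Ferritin genes have many processed copies, and reads can be split among them. For Ftl1, 12 other entries of the table aligned to its coding part at 85% identity or more over at least 100 bases, led by Ftl1-ps1 (99.6% identity, 20038 reads over the 12 libraries) and Gm15590 (99.1%, 15281 reads). The 12 held 50893 reads beside the 1179074 of Ftl1, or 3.48% to 7.25% of its reads per library, highest in LOY 5. Some of these entries overlap one another on the genome, so they are not 12 separate copies, and Ftl1-ps1 is annotated as protein coding. For Fth1, Gm6977 and Fth-ps3 held 6077 reads beside 1258989. Ncoa4 had 1 copy, Gm6768, at 99.9% identity, with 124 reads beside 5509. The sources used here do not say how reads that fit several places were counted, so the values of Fth1, Ftl1, Ncoa4 and their copies are uncertain in this respect. Ftl1 also overlaps the antisense gene Gm10252 (2083 reads), and with a kit that does not keep strand their reads cannot be told apart. Gm22133 overlaps an exon of Ftl1 on the same strand and was not listed, so its reads are not known.

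Slc11a1, a proton-driven metal pump of the phagosome also called Nramp1, lies at chr1:74375195-74386062. Its lowest, median and highest values were 2474, 4236 and 6617 normalised reads in control and 2403, 2771 and 5753 in LOY. Of the LOY libraries, 5 lay below all controls except control 12, while LOY 4 lay inside the upper control range. The means were 4406 ± 1375 and 3299 ± 1267, a log2 difference of -0.43 (SE 0.28, 95% interval -1.03 to 0.18, limma adjusted p = 0.997). The direction was negative with each library left out in turn, from -0.60 to -0.30, and did not pass the test.

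Slc40a1, ferroportin and the one known iron exporter of mammalian cells, lies at chr1:45908068-45926523. It stood at 844, 3209 and 5047 normalised reads in control and at 2375, 3603 and 7444 in LOY. Control 8 was far below every other library and LOY 5 was the highest. The means were 3338 ± 1580 and 4054 ± 1831, a log2 difference of 0.38 (SE 0.42, 95% interval -0.52 to 1.28, limma adjusted p = 0.999). Without control 8 and LOY 5, the libraries of lowest weight in each group, the difference was -0.17, and with the cardiomyocyte covariate it was 0.60.

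Tfrc, the receptor for iron-loaded transferrin, lies at chr16:32608920-32632794 and was barely read. It stood at 0, 26.9 and 240 normalised reads in control and at 0, 1.01 and 119 in LOY. Control 8 and LOY 4 were at 0, and 620 reads in control and 278 in LOY were counted in all. Controls 2, 7 and 11 and LOY 10 and 14 reached 10 normalised reads, which is 5 of 12 libraries, so Tfrc was not among the tested genes. The means were 73.3 ± 98.8 and 38.9 ± 59.3, and the difference of mean log2(value + 1) was -1.33 (exact permutation test, two-sided, p = 0.444). It ran from -2.16 without LOY 10 to -0.56 without control 7.

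Hmox1, heme oxygenase, lies at chr8:75093621-75100589. Its lowest, median and highest values were 829, 1878 and 3235 normalised reads in control and 507, 1657 and 2257 in LOY. Control 2 and control 6 were highest and LOY 5 lowest, with the other libraries interleaved. The means were 1894 ± 947 and 1555 ± 627, a log2 difference of -0.26 (SE 0.44, 95% interval -1.20 to 0.68, limma adjusted p = 0.999), which was 0.04 without LOY 5 and -0.70 with the cardiomyocyte covariate. The summed level of red cell genes, chiefly hemoglobin chains, ran from 2.84 to 9909 in control and from 0.989 to 6766 in LOY libraries. Slc4a1, Epb42, Ahsp and Rhag, other red cell markers, were not listed, and the part of red cell RNA in the Hmox1 values was not tested.

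Ncoa4, which delivers ferritin to the lysosome, lies at chr14:32159865-32179855. It stood at 104, 219 and 893 normalised reads in control and at 3.96, 330 and 865 in LOY. LOY 5 was far below the other 11 libraries, and the rest of both groups were spread over the same range. The means were 344 ± 300 and 421 ± 351, higher in LOY, while the log2 difference was -0.38 (SE 1.17, 95% interval -2.88 to 2.13, limma adjusted p = 0.999). The sign turned to 0.69 without LOY 5, DESeq2 on the recovered reads gave 0.29, and the cardiomyocyte covariate gave -2.25.

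None of the 6 tested genes passed the threshold of 0.05, and none was under 0.05 before adjustment. Across the table, 2 of 6951 genes passed in limma (0.0288%) and 304 (4.37%) had an unadjusted p under 0.05. Both groups overlapped for all 7 genes, and 14 of 6951 tested genes (0.201%) had groups that did not overlap. Of the 6, 3 differences were positive and 3 negative, with a median of -0.11 on the log2 scale beside 0.01 for all tested genes. The intervals show what these libraries could resolve: a change of 0.67 or more on the log2 scale lies outside the interval for Fth1 and of 0.49 or more for Ftl1, whereas for Ncoa4 the interval reached from -2.88 to 2.13. In the authors' deposited table the log2 fold changes were 0.16 for Fth1, 0.09 for Ftl1, -0.42 for Slc11a1, 0.28 for Slc40a1, -0.29 for Hmox1, 0.29 for Ncoa4 and -0.91 for Tfrc, all with an adjusted p of 0.999. DESeq2 on the recovered reads gave the same values for all 7 genes, so it is not a separate result from the authors' values.

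The ferritin chains were higher in the same libraries. Of 15 pairs among the 6 genes read in all 12 libraries, Fth1 and Ftl1 alone passed adjustment on the log2 scale (Pearson r = 0.77, permutation p = 0.00196, adjusted p = 0.0294). Spearman's rho was 0.66 (permutation p = 0.0227, adjusted p = 0.341). Within groups r was 0.59 in control and 0.88 in LOY libraries. Without LOY 3 and LOY 15, the libraries farthest from the median of Fth1, r was 0.55 (permutation p = 0.106, n = 10) and the pair did not pass. Leaving out extremes narrows the range and tends to lower r. This step therefore cannot tell whether the call rests on those libraries. Hmox1 and Ncoa4 had r = 0.67 (permutation p = 0.0208, adjusted p = 0.156), which was -0.03 without control 8 and LOY 5. All libraries share a scaling by depth, which such correlations include.

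Genes whose pattern over the 12 libraries was most like each member were named by Pearson r among 6950 tested genes, as a description. For Fth1 these were Fth-ps3 (0.94), one of its processed copies, Gm13840 (0.91) and Gm22774 (0.91), which aligns to Ftl1. For Ftl1 they were Ccl4 (0.87), a chemokine, Srgn (0.87), the granule proteoglycan serglycin, and Gm22774 (0.85). Slc11a1 was most like Il15 (0.85), a cytokine, Zfp180 (0.83) and Slfn1 (0.79). Hmox1 was most like Egln1 (0.90), an oxygen-sensing prolyl hydroxylase, Gltp (0.89) and Rap1gds1 (0.88). Slc40a1 was most like Cd274 (0.92), the checkpoint ligand PD-L1, and Gnai3 (0.90). Ncoa4 was most like Usf2 (0.91), a transcription factor, Abcf1 (0.91) and Tmem50b (0.90).

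No gene of the wider iron pathway passed the test. Of 94 further genes on 7 lists, 74 were in the table and 50 were tested, of which 24 had a positive and 26 a negative difference, with a median of -0.07. None passed the adjusted threshold in limma, or in edgeR, where 0 of 7054 genes passed (0%) and 130 (1.84%) had an unadjusted p under 0.05. In limma, 4 (8%) had an unadjusted p under 0.05, beside 4.37% of all tested genes. All 4 (Steap4, Isca1, Nfu1 and Slc7a11) were lower in LOY. Of all tested genes, 142 (2.04%) both had an unadjusted limma p under 0.05 and were lower in LOY. DESeq2 called 2 of the list genes, beside 3.12% of all genes it tested: Aifm2 and Alas2, neither of them tested in limma. Aifm2, a ferroptosis suppressor, was above 0 in 3 LOY libraries alone, and Alas2, the heme synthesis enzyme of red cells, in 2 control libraries alone.

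Among 6 tested genes of iron uptake, reduction and release, 3 were positive and 3 negative. Steap4, a metalloreductase, stood at 2483 ± 886 normalised reads in control and 1295 ± 1275 in LOY (log2 difference -1.86, SE 0.80, limma adjusted p = 0.997). Its LOY libraries ran from 87.5 to 3137 and overlapped the control range of 1126 to 3794. Mcoln1, a lysosomal channel that lets iron out, stood at 280 ± 457 and 613 ± 417. Pcbp1, an iron chaperone that loads ferritin, stood at 343 ± 177 and 322 ± 161.

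Among 4 tested iron binding and scavenging genes, 1 was positive and 3 were negative. Hp, haptoglobin, which captures free hemoglobin, stood at 21065 ± 5940 normalised reads in control and 20092 ± 6852 in LOY. Lcn2, which captures bacterial iron carriers, stood at 5226 ± 1629 and 4088 ± 1564, and Trf, transferrin, at 749 ± 425 and 664 ± 365. Lrp1, a receptor for heme bound to hemopexin, stood at 58.7 ± 93.4 and 322 ± 370, with overlapping ranges.

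Of 10 tested genes of iron sensing and control, 6 were positive and 4 negative, with a median of 0.62, the highest of the 7 lists. The summed level of this list was close in both groups, at 11493 ± 1202 normalised reads in control and 11416 ± 1749 in LOY. The 2 most abundant, Nfe2l2 and Fbxl5, had negative differences (-0.29 and -0.18). Nfe2l2, the stress regulator NRF2, stood at 5943 ± 1068 normalised reads in control and 4943 ± 1389 in LOY. Fbxl5, the iron-sensing ubiquitin ligase subunit that marks an iron regulatory protein for breakdown, stood at 2978 ± 681 and 2969 ± 1445. Bach1, the heme-sensing repressor of Hmox1, stood at 329 ± 366 and 609 ± 415, and Skp1a, a ligase scaffold subunit, at 537 ± 340 and 762 ± 357.

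Heme genes split evenly, with 5 of 9 positive and 4 negative. Por, the electron donor of heme oxygenase, stood at 2267 ± 1057 normalised reads in control and 2572 ± 956 in LOY. Alas1, the first enzyme of heme synthesis, stood at 1889 ± 698 and 1346 ± 570. Ppox, a later enzyme, stood at 769 ± 564 and 1013 ± 399, and Urod, another, at 155 ± 190 and 53.6 ± 103.0.

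Of 10 tested genes of mitochondrial iron and iron-sulfur clusters, 3 were positive and 7 negative, with a median of -0.41. Isca1, a cluster assembly protein, stood at 606 ± 472 normalised reads in control and 122 ± 154 in LOY (log2 difference -3.13, SE 1.16, limma adjusted p = 0.997). Nfu1, a cluster carrier, stood at 103 ± 69 and 44.5 ± 98.9 (log2 difference -3.12, SE 1.39, limma adjusted p = 0.997). Both overlapped between the groups. Iscu, the assembly scaffold, stood at 1066 ± 417 and 1116 ± 632, and Slc25a37, the mitochondrial iron importer mitoferrin, at 293 ± 455 and 639 ± 621.

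Of 8 tested genes of ferroptosis, a cell death driven by iron and lipid peroxides, 5 were positive and 3 negative. Slc7a11, the cystine importer that feeds glutathione synthesis, stood at 1891 ± 391 normalised reads in control and 1254 ± 315 in LOY (log2 difference -0.60, SE 0.28, limma adjusted p = 0.997). Its ranges, 1272 to 2340 and 834 to 1673, overlapped. Gpx4, which reduces lipid peroxides, stood at 1673 ± 458 and 1782 ± 793. Sat1, a polyamine enzyme, stood at 12777 ± 2911 and 10607 ± 2850, Alox5, a lipoxygenase, at 2471 ± 1514 and 2712 ± 699, and Lpcat3, which builds peroxidisable lipids, at 196 ± 256 and 25.0 ± 54.0.

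Of 5 tested NRF2 targets beside Hmox1 and the ferritins, 2 were positive and 3 negative, Slc7a11 among the latter. G6pdx, a source of NADPH, stood at 1143 ± 868 normalised reads in control and 1280 ± 850 in LOY. Prdx1, a peroxidase, stood at 717 ± 631 and 415 ± 235.

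**Figure D4:**
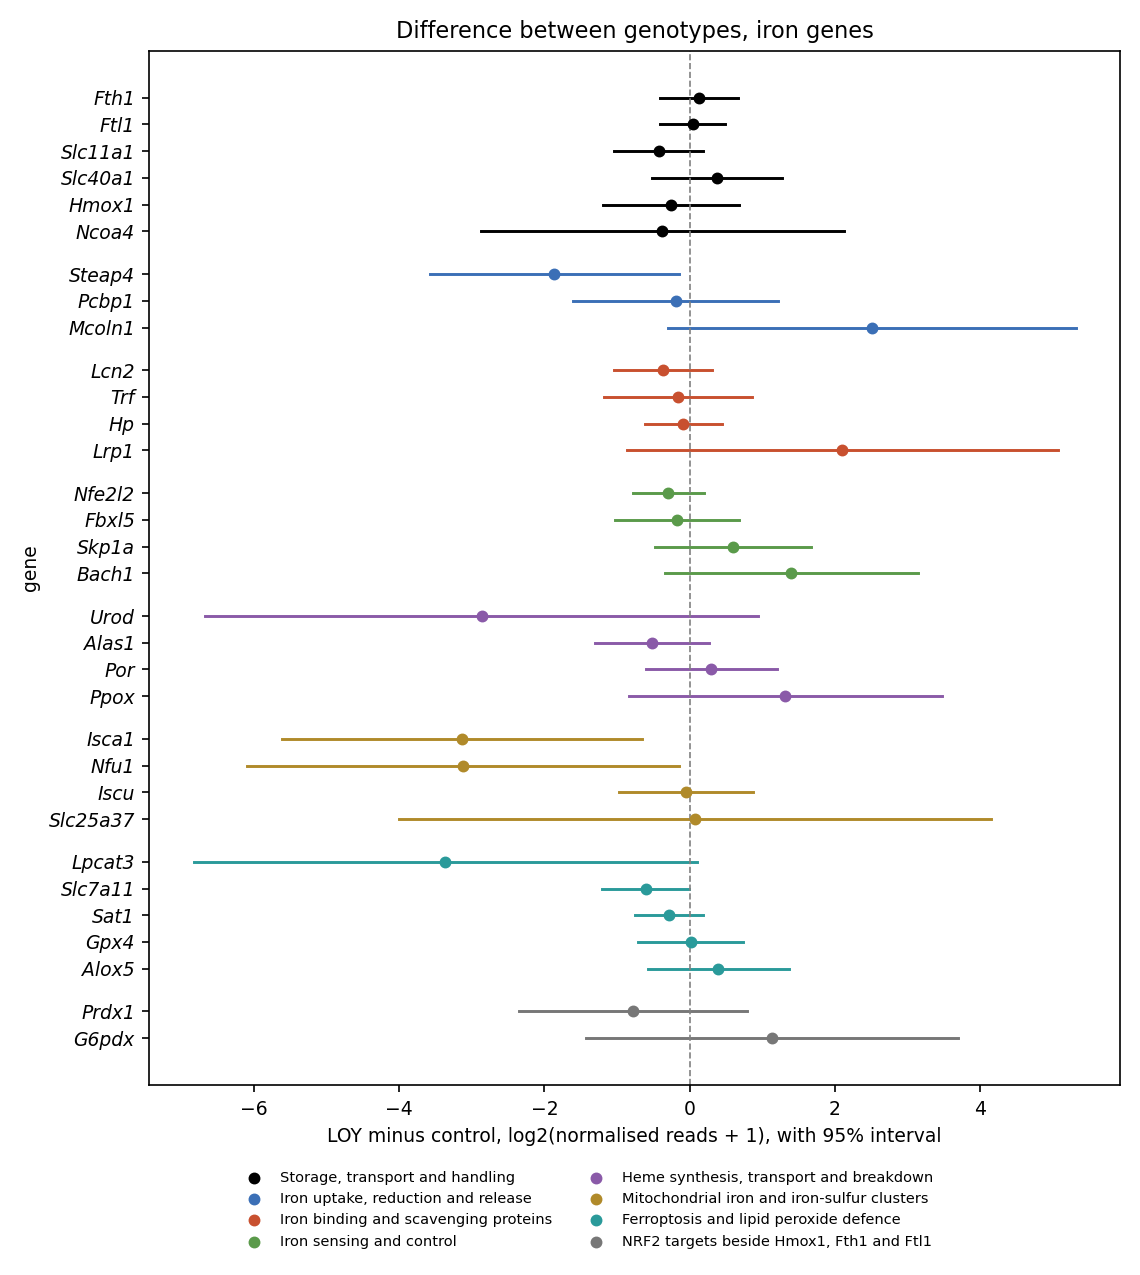
Log2 difference, LOY minus control, with its 95% interval for 6 of the 7 genes and the genes named from each list, from the limma fit; the dashed line marks no difference. Ftl1 has the narrowest interval of the genes shown, and no gene passes the adjusted threshold.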

How the data were processed

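The authors deposited 1 table whose signal columns hold, per the file headers, normalised read counts per gene in the 12 libraries. Dividing each library's values by its smallest step gave whole reads for 100% of the values above 0 (within 0.01 of a read), so reads could be recovered. The deposited table also holds the authors' log2 fold change and p-value per gene. The submitters' processing notes name STAR 2.5.2b, featureCounts of Subread 1.5.2, Trimmomatic 0.36 and bcl2fastq 2.17, and the builds GRCm38 and mm10. The tool behind the scaling and test and the handling of multiply mapped reads are not given in the sources used here. For the 7 genes, the deposited log2 fold changes and adjusted p-values equal those of DESeq2 run on the recovered reads. Per the labels' protocols, cDNA was made with SMART-Seq v4 and Nextera XT, which keep neither strand nor molecular identifiers. The table lists no totals beyond its own genes. Symbols turned into dates (17) or blank (8) were replaced from GENCODE M21.

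The test was limma 3.58.1 (trend, robust) on log2(normalised reads + 1) over genes that reached 10 normalised reads in 6 or more libraries, with Benjamini-Hochberg adjustment over all tested genes and no covariate. Adding 1 shrinks differences among values near 0, while single libraries near 0 weigh heavily on the log2 scale. For low genes such differences can therefore depart from the ratio of the group means, LOY over control. This ratio was 0.53 for Tfrc and 1.22 for Ncoa4, beside log2 differences of -1.33 and -0.38. Tfrc, below the filter, had an exact permutation test. Correlations used 100000 resamples. Alternatives were DESeq2 1.42.0 and edgeR 4.0.16 on recovered reads, no filter, quantile normalization, a mean of at least 50, pseudocounts of 0.5 and 5, array weights, libraries left out and a cardiomyocyte covariate. Sums of Ftl1 with its copies, and the fold range over libraries with each left out, were added after seeing the data. Copies were found with blastn 2.17.0. The limma fit was also run on simulated counts, and the share of true changes that it would call is not reported here. The 7 genes and all lists were chosen with earlier results of these data known. On each list the genes named are up to 3 of highest mean and up to 2 of smallest unadjusted p, and for each of the 6 genes read in all 12 libraries the 3 of highest r, of which 1 is not reported here.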

Additional observations from a re-analysis of the deposited data

Results flagged for a closer look

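In a group of 6 libraries, a value was set apart when its gap to the next library was too large a part of the group's range by Dixon's 95% critical value. Chance sets apart about 1 in 20 groups of normally distributed values, and 16 were examined. Gaps were taken on normalised reads and not on the log2 scale of the tests. Which values are set apart depends on this scale. Ftl1 in LOY 15 stood at 155001 normalised reads, with a gap of 0.715 of the LOY range. Slc11a1 in LOY 4 stood at 5753 normalised reads, with a gap of 0.663 of the LOY range.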

How the results depend on the processing

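No paired analysis was possible because the groups share no replicate number. The count of genes past the limma threshold, 2, was 303 with DESeq2 and 0 with edgeR (130 genes at unadjusted p under 0.05), without a filter, at a mean of at least 50, without control 8 and LOY 5, or with the cardiomyocyte covariate, and ran from 0 to 4 with 1 library left out. The iron list count, 0, was 2 with DESeq2. None of the 6 tested genes passed under any alternative, and Tfrc did not with DESeq2, without a filter, at a mean of at least 50 or with 1 library left out, the settings run for it. With 1 library left out, the log2 difference ran from -0.018 to 0.29 for Fth1, from -0.14 to 0.13 for Ftl1, from -0.46 to 0.035 for Hmox1, from 0.02 to 0.54 for Slc40a1, from -2.16 to -0.56 for Tfrc and from -0.80 to 0.69 for Ncoa4, the negative Fth1 value being that without LOY 15 and the positive Hmox1 and Ncoa4 values those without LOY 5. Ftl1 was negative without control 8, control 11 or LOY 15, at -0.029 with array weights and at -0.0043 with the cardiomyocyte covariate. Without control 8 and LOY 5, Slc40a1 was -0.17 and Ncoa4 0.43. Ncoa4 was 0.29 with DESeq2 and 0.26 with edgeR. Of the correlated pairs, 1 in all, 0 passed with Spearman's rho, without the 2 libraries farthest from the median, within control or within LOY libraries, and 1 after centring by group. The cause of these shifts was not tested. Summing Ftl1 with its copies gave a mean log2 ratio of Fth1 to Ftl1 of 0.05. Over the settings that leave no single library out, the difference ran from 0.09 to 0.24 for Fth1, from -0.43 to -0.29 for Slc11a1, from -0.70 to -0.17 for Hmox1, from -0.17 to 0.60 for Slc40a1 and from -2.25 to 0.43 for Ncoa4. The most negative Hmox1 and Ncoa4 values and the highest Slc40a1 value were those with the cardiomyocyte covariate. PCR copies count as reads.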

Other observations

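Of the 12 entries that align to the coding part of Ftl1, 5 are annotated as miRNA: Gm22774, Mir692-1, Gm22751, Mir692-2 and Gm26445. On the genome, Gm22774 overlaps Gm15590, Gm22751 overlaps Gm12164, Mir692-2 overlaps Ftl2 and Gm26445 overlaps Ftl1-ps2, which are also among the 12 entries. Gm22774 held 2890 reads and Mir692-1 held 2524 over the 12 libraries. Each is 109 bases long and aligned to Ftl1 at 94.6% to 97.3% identity, ending at base 823 of the Ftl1 transcript. Their values over libraries cannot be told apart from reads of ferritin messages in these files. In LOY 5, the share of copy reads beside Ftl1 was 7.25%, while the next highest library, LOY 15, had 5.00%.

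Outside the 7 genes, the iron-responsive element was also found in the 5′ UTR of Alas2, the erythroid enzyme of heme synthesis, at chrX:150547459-150547485 on the plus strand. Alas2 was above 0 in 2 control libraries and was listed at 0 in all 6 LOY libraries.
Alas2: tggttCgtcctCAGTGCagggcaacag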
